A study of Homo sapiens with 8 samples.

Results

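The m6A methyltransferase complex genes are METTL3, METTL14, METTL16, WTAP, VIRMA, RBM15, RBM15B, ZC3H13 and CBLL1. They were found by gene symbol, and all 9 were among the 27945 genes counted. Nascent RNA was measured in IMR90 cells, an established strain of human lung fibroblasts, by fastGRO-seq, a run-on assay that tags and sequences the RNA polymerases are making at the time of harvest. All cells belong to a line that carries ER:RAS, an oncogenic RAS fused to the estrogen receptor that 4-hydroxytamoxifen (4-OHT) switches on, delivered by a retrovirus and selected with G418. The 4 groups had 2 libraries each. Control cells were labeled wild type and control, with no shRNA named. The other 3 groups were made senescent with 100 nM 4-OHT for harvest on day 6 and carried a lentiviral shRNA, namely a scrambled sequence (shControl), shMETTL3 or shMETTL14, each knockdown with a single hairpin. Between senescent shControl and control cells, senescence and shRNA infection therefore cannot be told apart, and an effect of a knockdown cannot be told apart from an effect of its hairpin.

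N6-methyladenosine (m6A) is a methyl mark placed on adenosines of messenger RNA while it is being transcribed. METTL3 is the catalytic subunit and METTL14 its partner, which holds the RNA. WTAP docks this core to the other subunits, VIRMA, ZC3H13 and the ubiquitin ligase CBLL1 (also called HAKAI), while RBM15 and its paralog RBM15B bind RNA and help to recruit the complex to it. METTL16 is a separate methyltransferase that acts on a small nuclear RNA and on the transcript of MAT2A, the enzyme that makes the methyl donor S-adenosylmethionine.

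Most counts, with a median of 90.2%, fell on ribosomal RNA genes, so 1513930 to 2048475 counts a library lay on other genes. Counts of a member are therefore small, and each is given as the number of reads over the whole gene, introns included. A normalized count is the count divided by the TMM-scaled size of its library and multiplied by the mean size, and RPKM is the same with size and gene length divided out. The cell label was checked on markers. All 10 fibroblast markers were measurable, with VIM the most abundant, and their summed level was 68.4 to 73.3 RPKM in control, 48.7 and 52.3 in senescent shControl, 54.3 and 45.3 in shMETTL3, and 39.4 and 41.6 in shMETTL14 libraries. VIM leads this sum. In senescent shControl against control cells 7 of the 10 were lower and 1, VIM, higher (median log2 fold change -1.15), beside 13.3% of all genes either way. With shMETTL3 against shControl 1 was higher and 2 were lower (-0.03), beside 12.3% and 11.2% of all genes. With shMETTL14 against shControl 0 were higher and 8 lower (-1.13), beside 9.15% and 12%. The 5 epithelial markers together had at most 10 counts in any library, and the 4 endothelial markers at most 10. The 4 immune markers had 17 and 20 counts in control and 27 to 63 in the senescent libraries, nearly all from CD68, a lysosomal gene that is not confined to immune cells, and CD3E was at 0 in every library.

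The promoters of METTL3, RBM15B, METTL14 and ZC3H13 are shown because the first pair and the second pair each moved together over the libraries. RefSeq start sites (GRCh38.p14) matched 8 of the 9 genes, and the 250 bases before the start were searched on both strands for CCAAT (bound by NF-Y), GGGCGG (bound by Sp1), TATAAA (bound by the TFIID complex), CCGGAAG (an ETS factor motif), CACGTG (an E-box) and TGACGTCA (a cAMP response element), and no match overlapped one of another kind. Matches are in capitals.
METTL3, minus strand, chr14:21511341-21511590: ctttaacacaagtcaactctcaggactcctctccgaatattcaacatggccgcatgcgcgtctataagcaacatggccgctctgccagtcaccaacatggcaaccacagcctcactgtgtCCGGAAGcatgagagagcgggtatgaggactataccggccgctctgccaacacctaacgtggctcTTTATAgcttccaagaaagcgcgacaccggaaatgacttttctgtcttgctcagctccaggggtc
RBM15B, plus strand, chr3:51391035-51391284: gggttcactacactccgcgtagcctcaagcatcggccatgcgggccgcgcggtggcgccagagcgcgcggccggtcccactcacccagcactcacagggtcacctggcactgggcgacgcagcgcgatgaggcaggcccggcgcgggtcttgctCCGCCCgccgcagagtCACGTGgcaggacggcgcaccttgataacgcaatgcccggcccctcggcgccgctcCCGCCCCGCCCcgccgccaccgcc
METTL14, plus strand, chr4:118685142-118685391: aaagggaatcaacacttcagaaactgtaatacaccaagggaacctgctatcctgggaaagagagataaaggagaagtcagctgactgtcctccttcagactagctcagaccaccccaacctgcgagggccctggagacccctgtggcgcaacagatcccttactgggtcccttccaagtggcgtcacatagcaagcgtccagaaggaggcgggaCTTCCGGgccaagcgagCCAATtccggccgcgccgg
ZC3H13, minus strand, chr13:46052747-46052996: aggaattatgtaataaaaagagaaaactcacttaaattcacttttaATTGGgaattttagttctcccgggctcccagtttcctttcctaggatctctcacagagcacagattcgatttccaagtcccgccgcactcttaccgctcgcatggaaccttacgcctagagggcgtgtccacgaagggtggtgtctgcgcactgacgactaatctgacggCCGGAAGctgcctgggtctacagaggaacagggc
METTL14 and ZC3H13 both hold CCGGAAG and CCAAT, and so does CBLL1, which did not follow them. METTL3 also holds CCGGAAG, with TATAAA on the opposite strand, and RBM15B holds GGGCGG at 3 places and CACGTG. In 35116 promoter windows of the same length, CCGGAAG occurred in 8.52%, CCAAT in 32.0%, GGGCGG in 42.6%, TATAAA in 10.7%, CACGTG in 6.34% and TGACGTCA in 1.65%. A match is a stretch of letters and not a measured binding site.

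METTL3, the catalytic subunit, was the target of shMETTL3 and is given first as a check of that label. It had 80 and 78 counts in the control libraries, 77 and 47 in senescent shControl, 16 and 19 in shMETTL3, and 73 and 56 in shMETTL14. Both shMETTL3 libraries lay below all other libraries, while the other 3 groups overlapped and the senescent shControl pair was spread widely. These counts take exons and introns together. Whether the lower METTL3 count in its own knockdown reflects transcription or finished RNA left in the nuclei was not tested. With shMETTL3 the mean normalized count was 17.2 ± 1.15 (SD, n = 2) against 71.7 ± 27.4 with shControl, a 4.11-fold fall (log2 fold change -2.04 ± 0.31 SE, edgeR adjusted p = 1.79e-05). In a library-by-library check this was -1.60 without Sen/shControl replicate 1 and -2.40 without Sen/shControl replicate 2, with the call kept in both. In senescent shControl against control cells the METTL3 difference was 0.04 (95% interval -0.46 to 0.54), and in shMETTL14 against shControl it was -0.11 (-0.62 to 0.40). The sign of these last differences is not fixed, since they became -0.40 and 0.33 without Sen/shControl replicate 1, and the latter 0.029 without Sen/shMETTL14 replicate 2.

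METTL14, the RNA-binding partner of METTL3 and the target of shMETTL14, had 60 and 55 counts in control, 24 and 28 in senescent shControl, 41 and 48 in shMETTL3, and 18 and 14 in shMETTL14 libraries. The 4 groups did not overlap in normalized count and ran from control, the highest, through shMETTL3 and shControl to shMETTL14, the lowest. With shMETTL14 the mean normalized count was 16.4 ± 2.30 against 29.8 ± 1.97 with shControl (SD, n = 2). This 1.81-fold lower level (log2 fold change -0.86, 95% interval -1.56 to -0.15) did not pass the test over all genes (edgeR adjusted p = 0.0763), though METTL14 was called lower than in shMETTL3 cells, as given next. The series' design text names METTL4 for this knockdown where the sample titles name METTL14, and the study's methods list a METTL14 hairpin and none for METTL4. METTL4 was at -0.66 (95% interval -1.52 to 0.20) against shControl, not called (0.282), and at -0.82 against shMETTL3, also not called (0.115). Senescent shControl cells had less METTL14 nascent RNA than control cells, 29.8 ± 1.97 against 50.5 ± 3.71 (log2 fold change -0.76 ± 0.28 SE, edgeR adjusted p = 0.0472). That call lay just inside the threshold. It was lost when Control replicate 1 (-0.68, adjusted p = 0.212) or 2 (-0.83, 0.105), Sen/shControl replicate 1 (-0.68, 0.241) or 2 (-0.82, 0.142), or Sen/shMETTL14 replicate 1 (-0.72, 0.0715) or 2 (-0.75, 0.0620) was left out, and also with no filter on low counts, with ribosomal RNA rows removed, under DESeq2 and under the replicate block, whose value was -0.76 with adjusted p = 0.0503. In shMETTL3 cells METTL14 was 0.56 above shControl (-0.04 to 1.15), which was not called.

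A direct comparison of the knockdowns tested whether they differed in the core subunits, which are themselves the knockdown targets. METTL3 was higher in shMETTL14 than in shMETTL3 cells (log2 fold change 1.93 ± 0.31 SE, edgeR adjusted p = 1.92e-05) and METTL14 was lower (-1.41 ± 0.32, adjusted p = 0.00101). Per length, METTL3 RNA exceeded METTL14 RNA 2.71- and 2.88-fold in the control libraries and 6.52- and 3.41-fold in senescent shControl libraries. The ratio was 0.793 and 0.804 with shMETTL3 and 8.24 and 8.13 with shMETTL14. Only in the shMETTL3 libraries did METTL14 have the higher level of the pair.

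**Figure D1:**
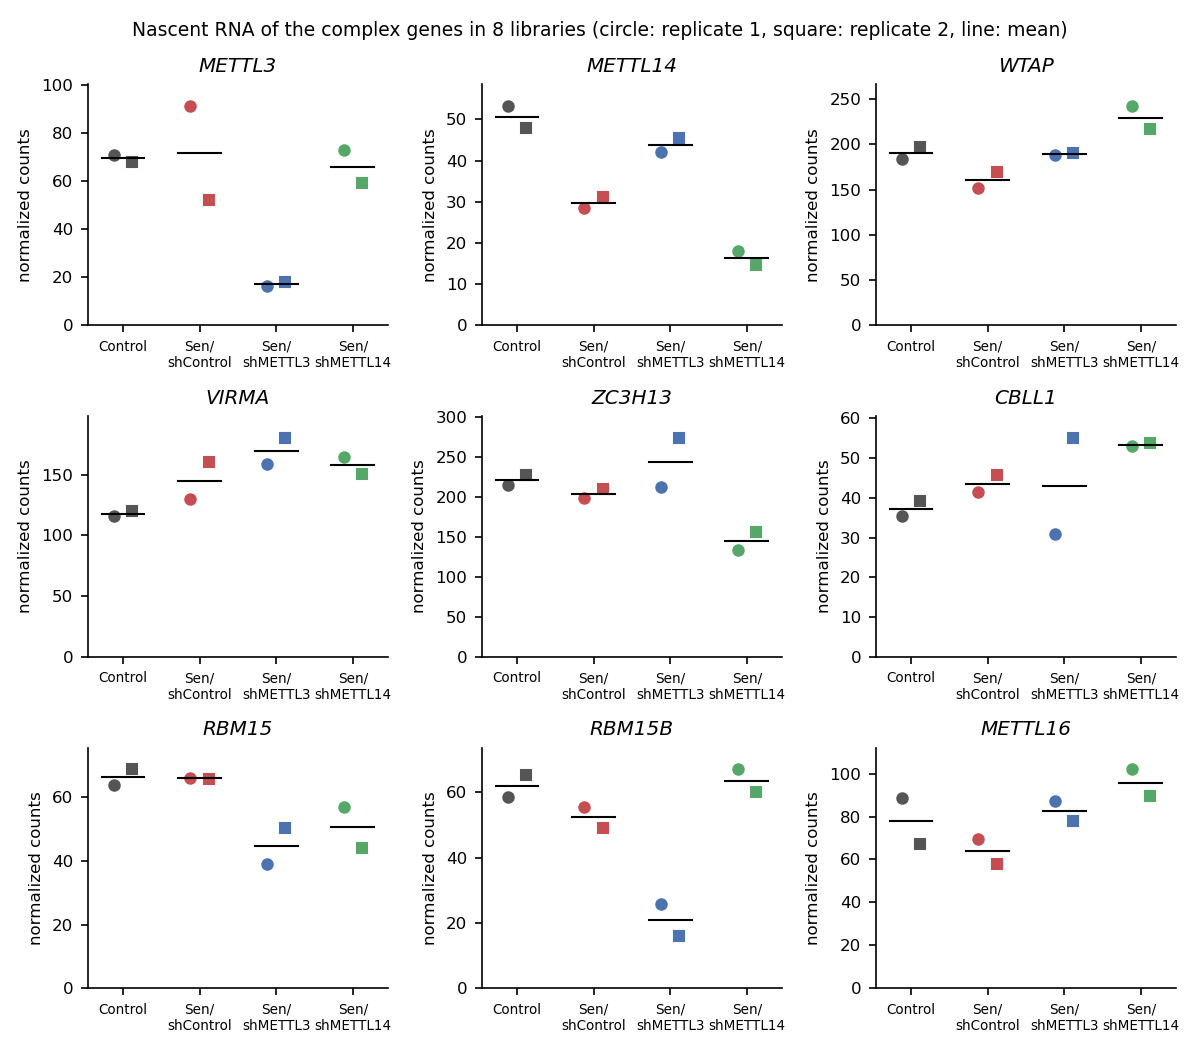
Normalized counts (vertical axis, from 0) of the 9 genes in each of the 8 libraries (horizontal axis, by group); circles are replicate 1, squares replicate 2 and lines the mean of 2 libraries. METTL3 and RBM15B are lowest in both shMETTL3 libraries, and METTL14 and ZC3H13 in both shMETTL14 libraries.

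The recruiters are RBM15 and RBM15B. RBM15B had 66 and 75 counts in control, 47 and 44 in senescent shControl, 25 and 17 in shMETTL3, and 67 and 57 in shMETTL14 libraries. Both shMETTL3 libraries lay below the other 6. RBM15B fell 2.51-fold with shMETTL3 against shControl (20.9 ± 6.72 against 52.3 ± 4.66 normalized counts, SD, n = 2; log2 fold change -1.33 ± 0.30 SE, edgeR adjusted p = 0.00157). It was also 1.61 ± 0.28 higher on the log2 scale in shMETTL14 than in shMETTL3 cells (adjusted p = 6.97e-05). The call against shControl was lost with library size alone as the scale (-0.72, 0.0621) and kept in the other 16 of 17 alternatives. RBM15 had 72 and 79 counts in control, 56 and 59 in senescent shControl, 38 and 53 in shMETTL3, and 57 and 42 in shMETTL14 libraries. Its shMETTL3 libraries also lay below those of shControl, but the difference of -0.56 (95% interval -1.05 to -0.06) was not called (edgeR adjusted p = 0.1001). Its interval overlaps that of RBM15B (-1.93 to -0.72), and the difference between these 2 genes was not tested. Both genes are short, and exons cover a larger share of them than of the other members. RBM15B is a single exon in the annotation and exons cover 99.7% of its counted span of 6637 bases, and for RBM15 they cover 45.8% of 7358 bases. The corresponding share was 5.98% to 22.2% for the other 7 genes. Reads from finished RNA left in the nuclei would fall on exons. Their part in these values, and in those of the targets METTL3 and METTL14, was not tested.

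The adaptor WTAP had 207 and 226 counts in control, 128 and 152 in senescent shControl, 183 and 200 in shMETTL3, and 242 and 206 in shMETTL14 libraries. The senescent shControl pair was the lowest and the shMETTL14 pair the highest after normalization. WTAP rose 1.43-fold with shMETTL14 against shControl (229 ± 17.6 against 160 ± 12.6 normalized counts, SD, n = 2; log2 fold change 0.52 ± 0.15 SE, edgeR adjusted p = 0.0151). ZC3H13, the zinc finger subunit that keeps the complex in the nucleus, had 243 and 261 counts in control, 168 and 189 in senescent shControl, 208 and 289 in shMETTL3, and 134 and 148 in shMETTL14 libraries. The shMETTL14 pair was the lowest of all. ZC3H13 fell 1.41-fold with shMETTL14 against shControl (145 ± 15.5 against 204 ± 8.30, log2 fold change -0.50 ± 0.16, edgeR adjusted p = 0.0290). It was also lower in shMETTL14 than in shMETTL3 cells (-0.75 ± 0.16, adjusted p = 5.06e-04). DESeq2 called neither WTAP nor ZC3H13 with shMETTL14 against shControl, and library size alone took the call from ZC3H13 (-0.15). The 2 calls against shControl were lost without Sen/shControl replicate 1 (WTAP 0.44, adjusted p = 0.170; ZC3H13 -0.54, 0.0978), without Sen/shControl replicate 2 (WTAP 0.60, 0.0633; ZC3H13 -0.46, 0.185) and without Sen/shMETTL14 replicate 1 (WTAP 0.41, 0.196; ZC3H13 -0.41, 0.237). In shMETTL3 cells the ZC3H13 value was 0.26 above shControl and not called, but without Sen/shMETTL3 replicate 1 it was 0.41 with adjusted p = 0.0440 and without Sen/shMETTL3 replicate 2 it was 0.041 with adjusted p = 0.907.

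VIRMA, the largest scaffold subunit, and CBLL1 passed no test in the 4 comparisons. VIRMA had 131 and 138 counts in control, 110 and 144 in senescent shControl, 155 and 190 in shMETTL3, and 165 and 143 in shMETTL14 libraries. After normalization both control libraries lay below all senescent libraries, whose groups overlapped. CBLL1 ranged from 30 counts in shMETTL3 replicate 1 to 58 in shMETTL3 replicate 2, so a single group spanned the range of all libraries. Its intervals ran from -0.60 to 0.58 for shMETTL3 and from -0.28 to 0.87 for shMETTL14 against shControl, wide enough to hold the 0.52 called for WTAP.

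METTL16 had 100 and 77 counts in control, 59 and 52 in senescent shControl, 85 and 82 in shMETTL3, and 102 and 85 in shMETTL14 libraries. The shMETTL14 libraries lay above those of shControl, by 0.59 on the log2 scale (95% interval 0.15 to 1.03), at the edge of the threshold (edgeR adjusted p = 0.0510). The gene was called when Sen/shMETTL3 replicate 1 (0.59, adjusted p = 0.0255) or replicate 2 (0.59, 0.0254) was left out of the shared fit, and under the replicate block (0.59, 0.0389). It was also called with library size alone (0.94, 0.00194), with at least 10 counts in every library (0.59, 0.0477) and with only the groups compared (0.58, 0.0237). In all, 7 of 17 alternatives called it, and without Sen/shControl replicate 2 it was at 0.45 with adjusted p = 0.337. MAT2A, the METTL16 target, fell in senescent shControl against control cells (log2 fold change -0.45 ± 0.14, edgeR adjusted p = 0.0174) and again with shMETTL3 against shControl (-0.42 ± 0.15, 0.0412), while its value with shMETTL14 was -0.12 (0.628).

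Counted over the 9 genes, senescent shControl against control cells gave 0 higher and 1 lower, METTL14. Of the 12844 genes tested, 13.3% were called higher and 13.3% lower in that comparison. With shMETTL3 against shControl, 0 members were higher and 2 lower (METTL3 and RBM15B), beside 12.3% of all genes higher and 11.2% lower. With shMETTL14 against shControl, 1 was higher (WTAP) and 1 lower (ZC3H13), beside 9.15% and 12% of all genes. Between shMETTL14 and shMETTL3, 2 were higher (METTL3 and RBM15B) and 2 lower (METTL14 and ZC3H13), beside 16.5% and 18.7% of all genes. The first 3 comparisons share the senescent shControl libraries and the last shares both knockdown groups with them, so their values are not independent. The median log2 fold change of the 9 genes was -0.11, 0.22, 0.12 and 0.22 in these comparisons, against -0.03, -0.03, -4.87e-05 and 0.01 over all genes tested. No test was made of the member counts against these shares. METTL3 with shMETTL3 and METTL14 with shMETTL14 are the intended targets, so their calls between the knockdowns are calls of the targets themselves.

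**Figure D2:**
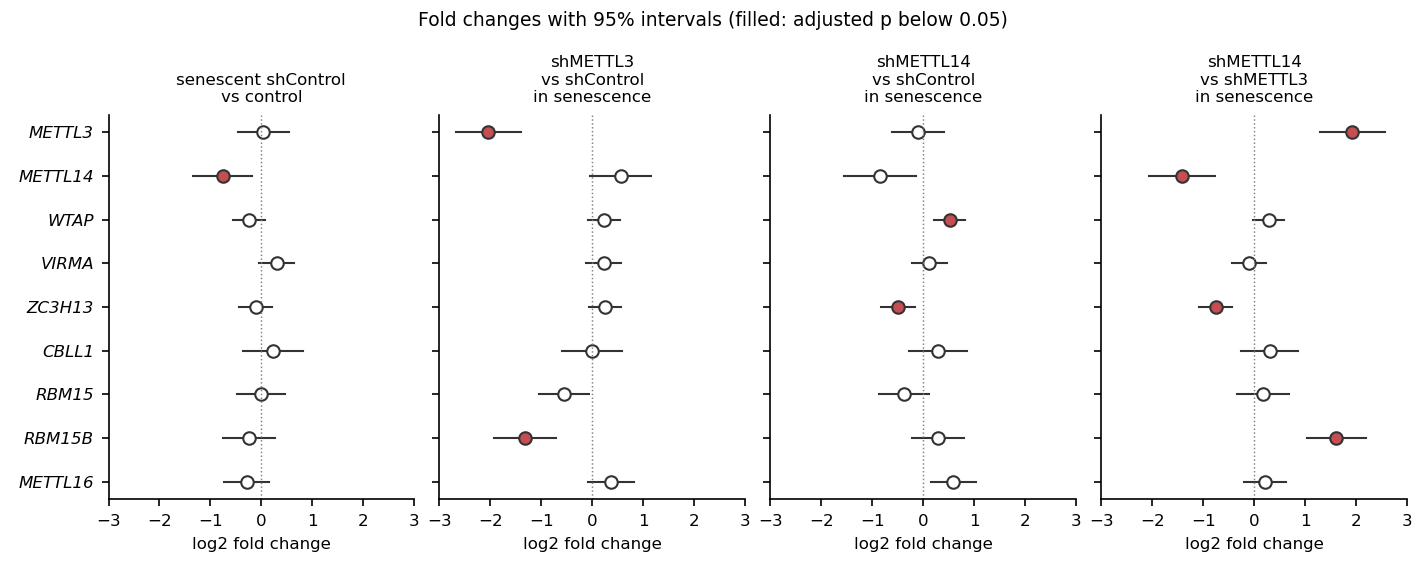
Log2 fold change (horizontal axis) of each gene in the 4 comparisons; points are estimates, bars 95% intervals and filled points genes with an adjusted p below 0.05. METTL3 at -2.04 and RBM15B at -1.33 stand farthest from 0 with shMETTL3, and the filled points with shMETTL14 are WTAP at 0.52 and ZC3H13 at -0.50.

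Levels between genes were compared per length. In control cells the order ran from RBM15B (0.520 ± 0.041 RPKM, SD, n = 2) and RBM15 (0.503 ± 0.027), whose libraries overlapped, through WTAP (0.362 ± 0.018), METTL3 (0.292 ± 0.0087) and ZC3H13 (0.126 ± 0.0049) to CBLL1 (0.116 ± 0.0083), METTL14 (0.105 ± 0.0077) and VIRMA (0.1003 ± 0.0025), and METTL16 was lowest at 0.0453 ± 0.0089. CBLL1 overlapped METTL14 and METTL14 overlapped VIRMA, so their order is not settled. Among tested protein-coding genes RBM15B stood at percentile 92.1, METTL3 at 84.8, METTL14 at 54.3 and METTL16 at 25.6. In senescent shControl cells RBM15 led (0.5002 ± 0.0029) ahead of RBM15B (0.440 ± 0.039), WTAP (0.305 ± 0.024) and METTL3 (0.302 ± 0.12) overlapped, CBLL1, VIRMA and ZC3H13 followed between 0.135 and 0.116, and METTL14 (0.0618 ± 0.0041) and METTL16 (0.0372 ± 0.0049) were lowest. With shMETTL3, WTAP (0.359 ± 0.0029) and RBM15 (0.339 ± 0.061) overlapped at the top, and METTL3 moved to place 8 of 9 (0.0726 ± 0.0048, percentile 43.0). RBM15B (0.176 ± 0.057), VIRMA, ZC3H13 and CBLL1 (0.133 ± 0.053) formed a run of overlapping neighbours there. With shMETTL14, RBM15B led again (0.534 ± 0.041), WTAP (0.437 ± 0.034) and RBM15 (0.384 ± 0.068) overlapped, METTL3 was at 0.278 ± 0.042, and METTL14 was last (0.0340 ± 0.0048, percentile 23.4).

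**Figure D3:**
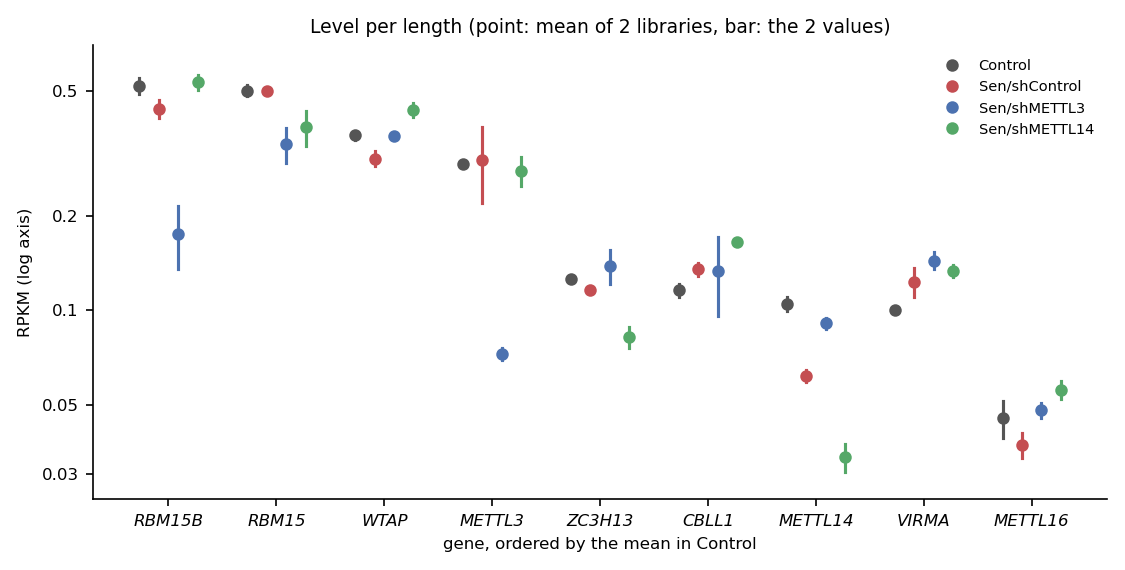
RPKM (vertical log axis) of the 9 genes, ordered by their mean in control cells, in the 4 groups (colors); points are means of 2 libraries and bars join their 2 values. RBM15B at 0.520 and RBM15 at 0.503 RPKM lead in control cells, and METTL16 at 0.0453 is lowest. Reads of finished RNA and of overlapping genes were not taken out.

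The counted spans overlap other genes for 4 of the 9. In the table's hg19 coordinates METTL3 lies on the minus strand at chr14:21966275-21979517 and shares 1046 bases with TOX4, RBM15B lies on the plus strand at chr3:51428699-51435336 and shares 2038 bases, 30.7% of its span, with DCAF1, and CBLL1 shares 884 bases with LOC101927974, which had at most 5 counts. WTAP, on the plus strand at chr6:160148030-160177352, lies wholly inside the counted span of SOD2, the mitochondrial superoxide dismutase on the other strand. Among well-counted genes nested on the other strand of a larger gene, the larger gene's count was never below that of the nested gene in 60 of 61 pairs, so reads of overlapping genes cannot be told apart here. The neighbours' own values are given for this reason. SOD2 had 1325 and 1450 counts in control, 1179 and 1189 in senescent shControl, 773 and 864 in shMETTL3, and 1126 and 1054 in shMETTL14 libraries. It fell with shMETTL3 against shControl (log2 fold change -0.75, edgeR adjusted p = 1.22e-04), where WTAP was at 0.24 and not called, and stood at -0.28 with shMETTL14 (0.129), where WTAP rose. TOX4 had 67 and 53 counts in senescent shControl and 50 and 48 in shMETTL3 libraries, and its difference of -0.51 was not called (0.125), beside -2.04 for METTL3. DCAF1 had 83 and 76 counts in senescent shControl and 72 and 89 in shMETTL3 libraries, and its difference of -0.20 was not called (0.499), beside -1.33 for RBM15B.

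Fold changes went with gene length in all 4 comparisons. Over all genes tested, the median log2 fold change with shMETTL3 against shControl went from -0.31 for genes under 5 kb and -0.29 for 5 to 10 kb, through -0.23 for 10 to 20 kb, -0.10 for 20 to 50 kb and 0.09 for 50 to 100 kb, to 0.28 for genes over 100 kb. The members spread along the same axis, from RBM15B (6.64 kb), RBM15 (7.36 kb) and METTL3 (13.2 kb), all below 0, to VIRMA (65.7 kb), METTL16 (95.9 kb) and ZC3H13 (98.3 kb), at 0.22, 0.37 and 0.26. METTL14 (26.9 kb) was at 0.56, WTAP (29.3 kb) at 0.24 and CBLL1 (17.97 kb) at -0.01. All members but METTL3, RBM15B and RBM15 lay above the median of their length range. With an offset for gene length in the fit, an alternative added after seeing the data, METTL3 was at -1.83 (edgeR adjusted p = 7.67e-05) and RBM15B at -1.06 (0.00935), both still called, and RBM15 was at -0.29 (0.458). For shMETTL14 against shControl the medians were 0.14 for genes under 5 kb and -0.07 for genes over 100 kb. They were 0.16 and -0.13 for senescent shControl against control cells, and 0.45 and -0.38 between shMETTL14 and shMETTL3, the steepest. With the offset WTAP (0.54, 0.00790) and ZC3H13 (-0.43, 0.0399) kept their calls and METTL16 was called (0.66, 0.0283). METTL14 kept its call in senescence (-0.75, 0.0468), and between the knockdowns METTL3 (1.65), METTL14 (-1.52), RBM15B (1.24) and ZC3H13 (-0.52) kept theirs.

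**Figure D4:**
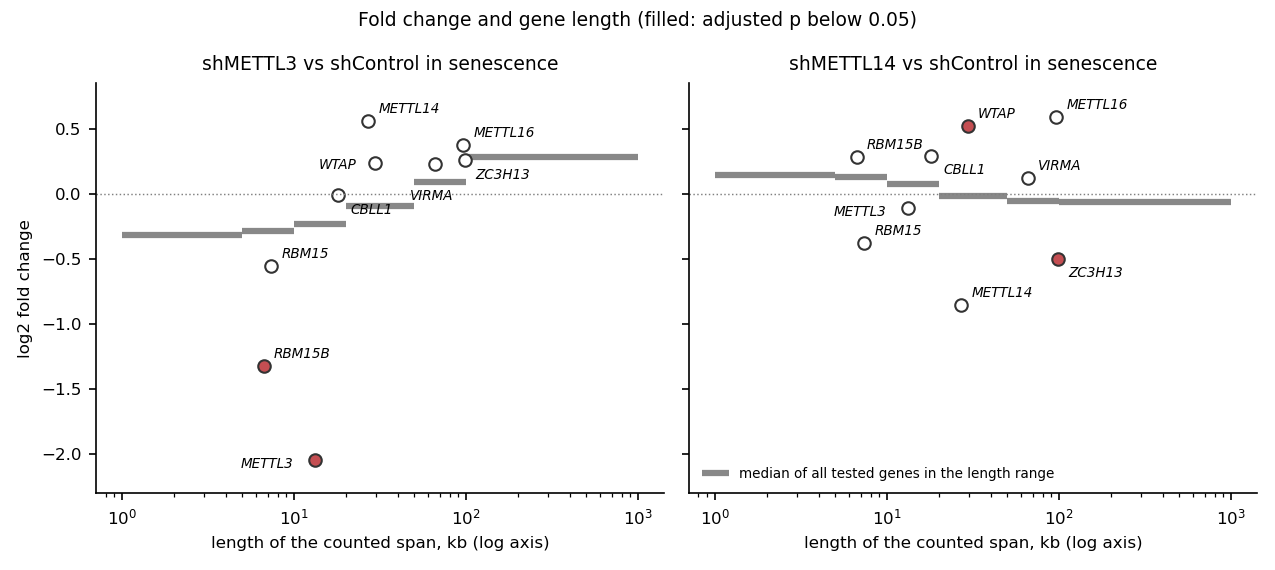
Log2 fold change (vertical axis) against the length of the counted span in kb (horizontal log axis) for the 9 genes with shMETTL3 (left) and shMETTL14 (right) against shControl; filled points have an adjusted p below 0.05 and grey bars are medians of all tested genes in a length range, the outermost ranges being open-ended. The grey medians climb from -0.31 to 0.28 with shMETTL3 and run from 0.14 to -0.07 with shMETTL14.

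Some pairs of members followed each other over the 8 libraries. The highest Pearson correlations of log2 levels among the 36 pairs were 0.93 for METTL3 with RBM15B and 0.86 for METTL14 with ZC3H13, a description that rests on 4 groups and shared library sizes. CBLL1, whose promoter holds the same CCGGAAG and CCAAT as METTL14 and ZC3H13, had values of -0.61 with METTL14 and -0.31 with ZC3H13, so these letters are not particular to genes that moved together.

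Among 3883 well-counted genes (mean of 100 counts or more), those most like METTL3 over the 8 libraries were RRBP1 (Pearson r = 0.966), LDLRAD3 (0.953) and XRCC6 (0.951). RRBP1, a ribosome-binding protein of the endoplasmic reticulum, had 946 and 946 counts in control, 703 and 687 in senescent shControl, 151 and 158 in shMETTL3, and 641 and 513 in shMETTL14 libraries. Like METTL3 it was lowest in both shMETTL3 libraries. The genes most like METTL14 were TNRC6A (0.991), CRTAP (0.972) and EBF1 (0.971). TNRC6A, a partner of Argonaute proteins in silencing by small RNAs, had 621 and 613 counts in control, 322 and 353 in senescent shControl, 453 and 502 in shMETTL3, and 309 and 274 in shMETTL14 libraries. These genes were picked for their likeness, so no test applies to them.

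**Figure D5:**
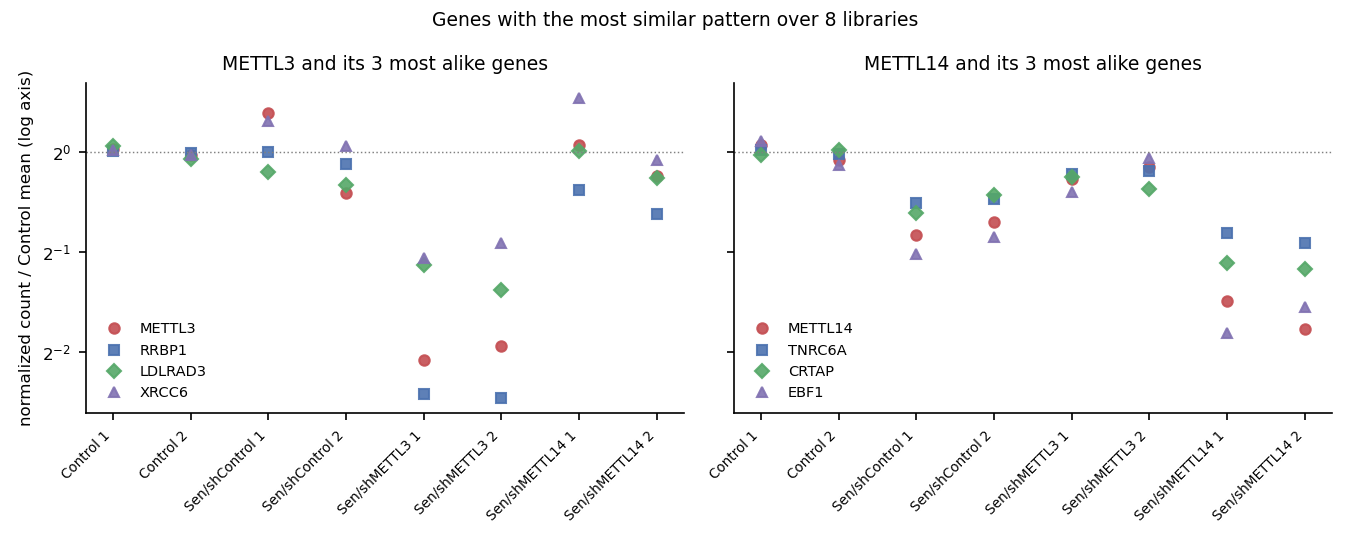
Normalized count divided by the control mean (vertical log axis) in each library (horizontal axis) for METTL3 and its 3 most alike genes (left) and METTL14 and its 3 most alike genes (right), 1 symbol a gene. METTL3, RRBP1, LDLRAD3 and XRCC6 are each lowest in the 2 shMETTL3 libraries, and METTL14, TNRC6A, CRTAP and EBF1 in the 2 shMETTL14 libraries.

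The proteins that read or remove the mark were compared by the same fit. Of 15 m6A readers, 1 was higher and 2 were lower in senescent shControl against control cells, beside 13.3% of all genes in either direction, with a median log2 fold change of 0.01. FXR2 rose (0.89 ± 0.22 SE), and IGF2BP3 (-0.40 ± 0.13) and HNRNPA2B1 (-0.35 ± 0.13) fell. With shMETTL3 against shControl, 2 were higher and 2 lower, beside 12.3% and 11.2% of all genes, with a median of -0.03. The helicase reader YTHDC2 (0.82 ± 0.18) and YTHDF3 (0.40 ± 0.14) rose, while PRRC2A (-1.16 ± 0.25) and YTHDF1 (-0.63 ± 0.23) fell. With shMETTL14 against shControl, 2 were higher and 2 lower, beside 9.15% and 12% of all genes, with a median of -0.06. There YTHDF3 (0.49 ± 0.14) and IGF2BP2 (0.44 ± 0.13) rose, and FMR1 (-0.81 ± 0.28) and HNRNPA2B1 (-0.44 ± 0.13) fell. Between the knockdowns 3 were higher with shMETTL14, PRRC2A (1.104 ± 0.25), YTHDF1 (0.82 ± 0.22) and FXR2 (0.73 ± 0.21), and YTHDC2 was lower (-1.12 ± 0.19), beside 16.5% and 18.7% of all genes. No test was made of these counts, or of those of the lists that follow, against the shares of all genes called. Genes of these lists were also not set beside others of their own length. With shMETTL3 against shControl 32.3% of genes over 100 kb were higher, and 4.54% of those under 5 kb. Between the knockdowns 41.3% of genes over 100 kb were lower with shMETTL14, and 6.90% of those under 5 kb.

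The erasers FTO and ALKBH5, which remove the methyl group, were not called in senescent shControl against control cells (-0.14, edgeR adjusted p = 0.482, and 0.45, 0.0983). FTO rose with shMETTL3 (0.57 ± 0.13 SE, adjusted p = 0.00258) and stood at -0.05 with shMETTL14 (0.829). ALKBH5 rose with shMETTL14 (0.56 ± 0.19, 0.0327) and stood at -0.45 with shMETTL3 (0.110). The direct comparison of shMETTL14 with shMETTL3 called both, FTO lower (-0.62 ± 0.13, 6.47e-04) and ALKBH5 higher (1.01 ± 0.19, 1.62e-04). Of all genes, 12.3% were higher with shMETTL3 and 9.15% with shMETTL14, and between the knockdowns 16.5% were higher and 18.7% lower. Whether the values of FTO and ALKBH5 go with gene length was not tested.

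Other methyltransferases of m6A or of the cap-adjacent mark m6Am were METTL5, its partner TRMT112, ZCCHC4, PCIF1 and METTL4. Of these 5, PCIF1, the m6Am writer, fell in senescent shControl against control cells (-1.19 ± 0.42, edgeR adjusted p = 0.0355) and stood at 0.12 with shMETTL3 (0.889) and 0.67 with shMETTL14 (0.315). ZCCHC4, which methylates 28S ribosomal RNA, rose with shMETTL14 against shControl (0.85 ± 0.27, 0.0253). METTL5, which methylates 18S ribosomal RNA, was at -0.12 (0.849) in senescence, -0.33 (0.584) with shMETTL3 and -0.54 (0.373) with shMETTL14. In number, edgeR called 0 of the 5 higher and 1 lower in senescence, beside 13.3% of all genes either way. It called 0 with shMETTL3, beside 12.3% and 11.2%. With shMETTL14 against shControl 1 was higher and 0 were lower, beside 9.15% and 12%. Between the knockdowns 0 were called, beside 16.5% and 18.7%. Of 22 other METTL family genes, 16 passed the filter on low counts. In senescence (13.3% of all genes either way) 1 rose, CSKMT (1.49 ± 0.42), and 3 fell, METTL7A (-2.49 ± 0.71), METTL22 (-1.05 ± 0.38) and METTL15 (-0.42 ± 0.15). With shMETTL3 (12.3% and 11.2%) 3 rose, METTL7A (2.22 ± 0.74), METTL23 (1.43 ± 0.38) and METTL15 (0.85 ± 0.15), and 0 fell. With shMETTL14 against shControl (9.15% and 12%) 0 were called. Between the knockdowns (16.5% and 18.7%) 0 were higher, and the same METTL7A (-2.37 ± 0.73), METTL23 (-1.11 ± 0.35) and METTL15 (-1.08 ± 0.15) were lower than with shMETTL3. METTL7A averaged 9.5 counts and passed the filter through the groups where it is high, so its calls against the groups where it is near 0 carry little weight.

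The S-adenosylmethionine cycle supplies the methyl group and clears its by-product. All 13 of its genes were tested, with medians of -0.18 on the log2 scale for senescence, -0.32 for shMETTL3 and -0.12 for shMETTL14 against shControl. In senescence, beside 13.3% of all genes either way, MTAP, which salvages methionine, rose (0.94 ± 0.15 SE), and SHMT1 (-2.25 ± 0.77), MTR (-0.58 ± 0.17) and MAT2A fell. SHMT1 averaged 7.75 counts and passed the filter through control cells, where it is high, so its call carries little weight. With shMETTL3, where 12.3% of all genes were higher and 11.2% lower, 2 rose, MTR (0.59 ± 0.17) and AHCYL2 (0.52 ± 0.17), and 5 fell, with the largest falls for MAT2B (-1.32 ± 0.31) and SHMT2 (-1.24 ± 0.24). With shMETTL14, beside 9.15% and 12% of all genes, AHCY, which clears S-adenosylhomocysteine, rose (0.74 ± 0.20) and MAT2B (-1.08 ± 0.30), MTR (-0.86 ± 0.19) and MTAP (-0.85 ± 0.16) fell. Between shMETTL14 and shMETTL3, beside 16.5% and 18.7% of all genes, 3 were higher, SHMT2 (1.47 ± 0.23), AHCY (1.06 ± 0.20) and AMD1 (0.51 ± 0.18), and 3 lower, MTR (-1.45 ± 0.18), MTAP (-0.97 ± 0.15) and AHCYL1 (-0.61 ± 0.16). MTR, methionine synthase, thus lay higher with shMETTL3 and lower with shMETTL14, and the comparison between them tested that difference. Whether it goes with gene length was not tested.

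The senescence label was checked on 10 genes. In senescent shControl against control cells 7 rose and 1 fell, beside 13.3% of all genes either way. Among them were CDKN1A (1.12 ± 0.15 SE) and LMNB1 (-2.28 ± 0.35), which encodes a nuclear lamin lost in senescence. CDKN2A was not called (0.50, edgeR adjusted p = 0.182). Against shControl 1 gene was higher and 6 were lower with shMETTL3, beside 12.3% and 11.2% of all genes. With shMETTL14 1 was higher and 7 were lower, beside 9.15% and 12%. The secreted factors IL1A, IL1B, IL6, CXCL8 and MMP3 were lower with either knockdown, and so was LMNB1 (-3.76 with shMETTL3 and -2.02 with shMETTL14), which falls in senescence. LMNB1 had normalized means of 1.03 and 3.55 there, against 14.8 with shControl and 72.9 in control cells, so its knockdown values carry little weight. CDKN1A was higher with shMETTL14 (1.01) and not called with shMETTL3 (-0.28). CDKN2B was higher with shMETTL3 (0.94) and not called with shMETTL14 (0.12). CCNA2 was lower with shMETTL14 (-3.01), though at normalized means of 1.05 against 9.11, so that value also carries little weight. The genes of this check thus did not move together toward control levels.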

How the data were processed

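The authors aligned reads to hg19 with STAR, per the submitters' processing notes, and the deposited values are raw counts per gene from HOMER over whole gene bodies, not normalized, with replicates kept apart. The library kit is directional and the file header names a strand setting, but reads of genes overlapping on opposite strands could not be told apart. The authors also deposited the length of each gene. Drosophila nuclei were added as a spike-in per the methods; their reads were left aside, so values are relative to other genes of a library.

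Counts of all 8 libraries were fitted together with edgeR 4.0.16 (R 4.3.3; TMM, filterByExpr with a minimum count of 10, quasi-likelihood test), and 12844 of 27945 genes, including all 9 members, were tested. Calls needed an adjusted p (Benjamini-Hochberg, over all tested genes) below 0.05. SE is the absolute log2 fold change divided by the root of the F statistic. Library totals ran from 14897360 to 20306299 counts. The study gives its fastGRO-seq experiments as 2 biologically independent ones. Replicates of each group differed by more than sampling noise. The chi-square per degree of freedom was 2.21 in control, 1.99 in senescent shControl, 9.76 in shMETTL3 and 4.88 in shMETTL14 libraries. The fit took the spread of a gene from all groups together.

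Alternatives were DESeq2 1.42.0, library size alone, ribosomal RNA left out, other filters, only the groups compared, a replicate block, adjusted p below 0.01 and each library left out; the length offset was added later. The fits were tested on simulated data. DESeq2 missed the first pass mark for recovered genes and called few changed genes of low count there. The mark was then set on genes averaging 100 counts or more. Of the members only WTAP, VIRMA and ZC3H13 average that many, so the mark does not cover the others. The simulated data had the same spread for every gene and group. Genes named are the members, genes overlapping them, the 3 genes most like METTL3 and METTL14, METTL5, PCIF1, FTO, ALKBH5 and MAT2A, genes of the label checks, METTL4, and up to 3 called genes a direction from each list. The value of 1 such called gene is not reported here. Of the METTL family list, 4 genes were found by an older symbol. The members and lists were chosen with earlier results of these data known. Exons are from GENCODE 44 and plots from matplotlib 3.10.9. No shRNA sequence is given.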

Additional observations from a re-analysis of the deposited data

How the results depend on the processing

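The calls moved with the scaling of libraries, the test used and the libraries left out. Members called between senescent shControl and control cells, 1 by edgeR with TMM, were 0 with DESeq2, 5 with library size alone (all lower), 0 with ribosomal RNA left out, 0 with no filter on low counts, 0 at an adjusted p below 0.01, and 0 to 1 with a library left out. With shMETTL3 against shControl, 2 were called, both lower. Library size alone called 6, with METTL3 lower and METTL14 (1.17), METTL16 (0.99), WTAP (0.85), VIRMA (0.84) and ZC3H13 (0.88) higher. Under that scale 5287 of the 12844 genes tested were called higher and 353 lower, so the members turned along with genes at large. There were 2 to 3 with a library left out. With shMETTL14 against shControl, 2 were called (1 higher and 1 lower), 2 with library size alone (METTL16 and WTAP, both higher), 0 with DESeq2, 0 at an adjusted p below 0.01 and 0 to 3 with a library left out. Between the knockdowns 4 were called in every alternative, the targets METTL3 and METTL14 among them. Library size alone moves the median of all genes to -0.53, 0.58, 0.35 and -0.25 in these comparisons, and the cause was not tested. It also took the call from RBM15B with shMETTL3 (-0.72, adjusted p = 0.0621) and from ZC3H13 with shMETTL14 (-0.15, 0.613). DESeq2 took it from METTL14 in senescence (0.302), WTAP (0.110) and ZC3H13 (0.152).

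Numbered replicates were also treated as a block. With this pairing 0 members were called between senescent shControl and control cells, since METTL14 moved to an adjusted p of 0.0503, and METTL16 was called with shMETTL14 (0.0389). Replicate differences of the same number correlated between groups at -0.063 to 0.296 over 3883 genes, highest for control with shMETTL3, and were at 0.109 between the knockdowns.

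All genes called in senescence, 3413, were 1940 with DESeq2, 5767 with library size alone (752 higher and 5015 lower, against 1711 and 1702), 2264 at an adjusted p below 0.01, and 1829 to 4288 with a library left out. With shMETTL3 they were 3008, and 1555, 5640 (5287 higher and 353 lower), 1752, and 1492 to 3992. With shMETTL14 they were 2720 (1175 higher and 1545 lower), and 1367 with DESeq2, 3872 with library size alone (3163 higher and 709 lower), 1571 at an adjusted p below 0.01, and 1270 to 3575 with a library left out. Between the knockdowns they were 4517 (2118 higher and 2399 lower), and 2656 with DESeq2, 4663 with library size alone (1177 higher and 3486 lower), 2996 at an adjusted p below 0.01, and 2404 to 5409 with a library left out.

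Signs changed only for genes that were not called. With library size alone the senescence values of METTL3 (-0.46), VIRMA (-0.19) and CBLL1 (-0.27) changed sign, as did RBM15 (0.063) and CBLL1 (0.61) with shMETTL3, METTL3 (0.25) with shMETTL14, and METTL16 (-0.042) and RBM15 (-0.086) between the knockdowns. RBM15 in senescence was 0.0067 with DESeq2, 0.020 with ribosomal RNA left out, 0.018 with no filter and 0.034 with only the groups compared. CBLL1 with shMETTL3 was 0.0083 with DESeq2, 0.0080 with ribosomal RNA left out and 0.18 with the length offset, which also gave VIRMA 0.019 and RBM15 -0.19 between the knockdowns. With a library left out, METTL3 ran from -0.40 to 0.40 and RBM15 from -0.057 to 0.054 in senescence, CBLL1 from -0.52 to 0.32 with shMETTL3, METTL3 from -0.47 to 0.33 and VIRMA from -0.023 to 0.27 with shMETTL14. Between the knockdowns VIRMA ran from -0.19 to 0.0069, RBM15 from -0.038 to 0.40 and CBLL1 from -0.032 to 0.81.

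Each group has 2 libraries and each knockdown a single hairpin. In bulk cells, fewer transcribing cells and less nascent RNA per cell cannot be told apart. Nascent RNA is not protein or m6A, neither of which was looked at here.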
